A study of Mus musculus with 74 samples.

Results

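The secreted Wnt antagonists described here were 8 genes: Sfrp1, Sfrp2, Sfrp4, Sfrp5, Frzb, Dkk2, Dkk3 and Wif1. They were chosen by name, with their Lung met and PT means already known, so the values below are a description of a chosen family. Wnt proteins are secreted ligands that bind Frizzled receptors together with Lrp5 or Lrp6 and stabilize beta-catenin inside the cell, or act through other routes that do not use it. The secreted Frizzled-related proteins (Sfrp1, Sfrp2, Sfrp4, Sfrp5 and Frzb) carry a Frizzled-like cysteine-rich domain and bind Wnt ligands outside the cell, and Wif1 binds Wnt ligands by a domain of its own. Dkk2 instead binds Lrp5 and Lrp6, and Dkk3 is a divergent member of the Dickkopf family with a less settled role in Wnt signaling. In the mammary gland and the lung several of these genes are known from stromal cells.

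Bulk RNA-seq compared Lung mets with primary tumors (PT) in 74 samples of transgenic female mice. The driver models were MMTV-Her2 (a neu transgene), C3TAg (called C3Tag here) and MMTV-Myc on the FVB background, with 6 PTs and 6 Lung mets of Her2 and of Myc and 7 of each tissue in C3Tag. The PyMT-F1 models came from an FVB MMTV-PyMT father and a mother of another inbred strain, with 6 samples per tissue labelled BALB, SEA/Gn (SEAGN) and AKRJ. The MMTV and C3(1) promoters drive the oncogene in mammary epithelium, and the tumors arose in the transgenic mice themselves, so PT and Lung met samples can hold stromal and lung cells of the same animal. All primary tumors of a mouse were combined into 1 PT sample, and Lung mets were taken as whole nodules. Her2, C3Tag and Myc tumors were removed by surgery from mice with a single lesion that were then aged further, whereas PyMT mice kept their tumors until the humane endpoint. Ages were not given in the sources used here. The strain was taken from the sample names, since the genotype label gives another strain for many of the PyMT-F1 samples, and that label writes BALB/NJ where the methods name BALB/cJ.

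Each table gave the authors' mean of normalized counts in Lung met and in PT for each gene, without values of single samples. The depth of the samples is therefore unknown, no difference could be set against the spread between animals, and no test was made. Each table was normalized separately, so levels were not compared between tables. The PyMT-F1 table named for AKR is described as AKR-named, because the study's own listing places the same comparison under another mother strain, C57BL/6J, and the strain was not settled. In bulk tissue, fewer cells of a type and less RNA per cell cannot be told apart. Of the markers that define lung epithelium, Sftpc, Sftpb, Sftpa1, Scgb1a1 and Scgb3a2 had no row in any table with means, while Ager, an alveolar type 1 cell gene, had a log2 ratio of Lung met over PT between 4.04 and 5.48 in all 5 tables.

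All 8 antagonists had a row in at least 1 of the 6 tables, and 27 of 40 possible pairs of gene and table had means. Sfrp1 and Dkk3 had means in all 5 tables, Sfrp2 and Dkk2 in 4, Frzb and Wif1 in 3, Sfrp5 in 2 and Sfrp4 in 1. In these 5 tables, a gene without a mean above 0 in both tissues counted as having no row. The genes without a row were Sfrp2, Sfrp4 and Wif1 in Her2, Sfrp4 and Frzb in C3Tag, Sfrp4, Sfrp5 and Frzb in BALB, Sfrp4, Sfrp5, Dkk2 and Wif1 in SEAGN, and Sfrp5 in the AKR-named table. Of the 8, 6 had a row in the Myc table and Sfrp4 and Sfrp5 had none, and no level or direction was analysed there. A mean over both tissues under 10 was found in 3 of the 27 pairs, namely Sfrp5 in Her2 and C3Tag and Frzb in SEAGN.

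The antagonists did not share a direction. Sfrp2 was lower in Lung met in each of the 4 tables that gave its means, Frzb was higher in each of its 3, and Wif1 was higher in C3Tag and lower in BALB and the AKR-named table. At a 2-fold difference of the means, 3 of the 27 pairs were higher in Lung met, 6 were lower and 18 lay within 2-fold. With a pseudocount of 10 added to both means, 3 of these 9 calls were lost, namely Frzb in Her2 (log2 ratio 0.77), Wif1 in BALB (-0.96) and Sfrp4 in the AKR-named table (-0.65). The antagonists at least 2-fold higher were Frzb in Her2 (1 of 5, where 2.38% of all genes were that much higher) and Dkk2 and Wif1 in C3Tag (2 of 6, against 7.42% of all genes). None was 2-fold higher in BALB, SEAGN or the AKR-named table, where 2.26%, 2.86% and 7.31% of all genes were. Those at least 2-fold lower were Sfrp2 in C3Tag (1 of 6, against 1.70% of all genes), Sfrp2 and Wif1 in BALB (2 of 5, against 2.40%), Sfrp2 in SEAGN (1 of 4, against 3.22%), and Sfrp4 and Wif1 in the AKR-named table (2 of 7, against 1.73%). In Her2, where 1.43% of all genes were 2-fold lower, none of the 5 was. As the genes were chosen on these same means, nothing is read from these shares. The pairs nearest to the 2-fold limit were Sfrp4 in the AKR-named table (log2 ratio -1.09) and Frzb in Her2 (1.12) on the far side, and Frzb in SEAGN (0.76) and the AKR-named table (0.74) on the near side.

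**Figure D1:**
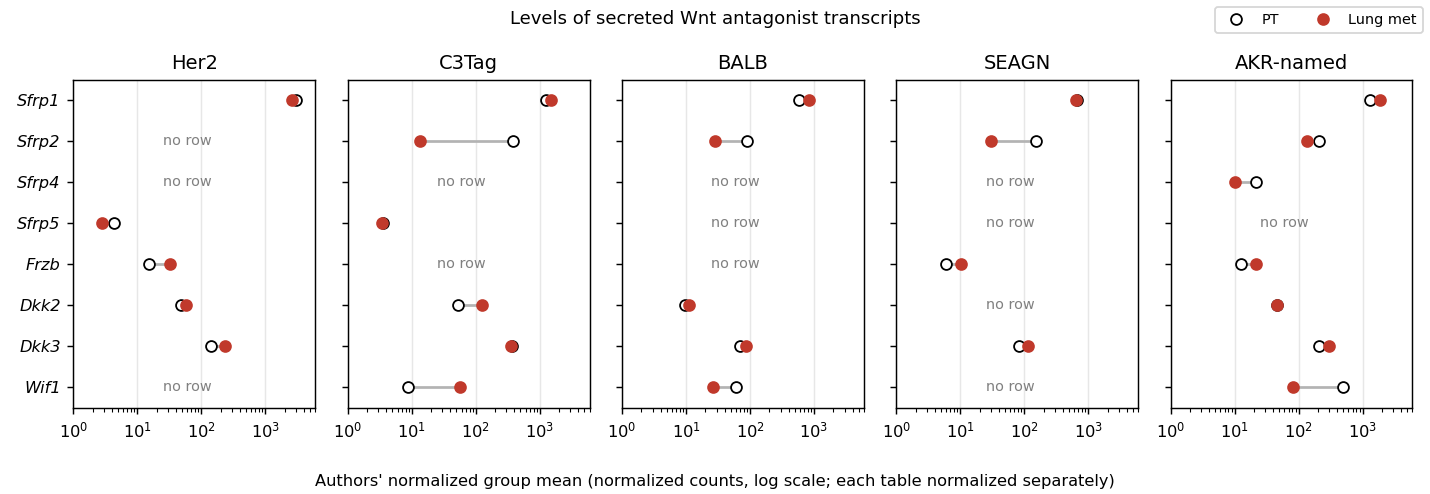
Authors' normalized group means of the 8 antagonists in PT (open circles) and Lung met (filled circles), with 1 panel per table. The axis is a log scale of normalized counts, and "no row" marks a gene without a mean above 0 in both tissues. Sfrp2 and Wif1 have the widest gaps between the tissues, with Sfrp2 at 379 in PT and 13.3 in Lung met of C3Tag, whereas the circles of Sfrp1 nearly touch in every panel.

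Sfrp2, a secreted Frizzled-related protein made mainly by fibroblasts, had the lowest log2 ratio of the family. In C3Tag its mean was 379 normalized counts in PT and 13.3 in Lung met, a log2 ratio of -4.83, and 0.166% of all genes had a lower one. In SEAGN the mean was 151 in PT and 30.1 in Lung met (log2 ratio -2.32, with 0.450% of genes lower), and in BALB it was 90.3 and 28.6 (log2 ratio -1.66, with 0.706% of genes lower). In the AKR-named table the means of 209 and 135 gave a log2 ratio of -0.64, and 5.37% of genes were lower. The Lung met mean was thus the lower of the pair in all 4 tables, by 28.5-fold in C3Tag, 5.01-fold in SEAGN, 3.16-fold in BALB and 1.55-fold in the AKR-named table. Per kb of exon, Sfrp2 stood above 63.6% of genes in C3Tag PT and above 6.33% in C3Tag Lung met. In SEAGN these shares were 68.2% and 27.0%, in BALB 50.8% and 25.3%, and in the AKR-named data 46.0% and 37.0%.

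As Sfrp2 is a fibroblast product, its values were set beside a list of fibroblast markers, a comparison chosen after the values of Sfrp2 were seen. The list held Col1a1, Col1a2, Col3a1, Dcn, Lum, Pdgfra, Pdgfrb, Fap, Postn, Thy1, Dpt and Pi16. In SEAGN 8 of the 11 listed genes with a row were at least 2-fold lower in Lung met, and their median log2 ratio of -2.32 matched that of Sfrp2. Of the 12 in BALB, 9 were lower, with a median of -1.67 against -1.66 for Sfrp2. Among the 12 of the AKR-named table, 9 were lower and the median was -1.41, below the -0.64 of Sfrp2. In C3Tag 3 of 12 were lower and 1 was higher, the median was -0.17, and all 12 lay above Sfrp2. The lowest fibroblast marker of C3Tag was Thy1, a surface protein of fibroblasts, at -1.72. Summed over the list, the normalized means were 46385 in PT and 39144 in Lung met of C3Tag, 19534 and 4888 in SEAGN, 14273 and 4654 in BALB, and 35877 and 13689 in the AKR-named table. The part of fibroblast content in the Sfrp2 values was not tested. In Her2, where Sfrp2 had no row, 9 of 11 fibroblast genes were 2-fold lower in Lung met, with a median of -1.65. Of all genes, 3.22% were that much lower in SEAGN, 2.40% in BALB and 1.73% in the AKR-named table. The shares were 1.70% in C3Tag, with 7.42% higher, and 1.43% in Her2. Not all fibroblast markers fell: Pdgfra was higher in Lung met in every table, from 0.44 in SEAGN to 0.94 in the AKR-named table. Pdgfrb ran from -0.32 in SEAGN to 0.65 in the AKR-named table.

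Over the 4 tables with Sfrp2, the genes whose log2 ratios were nearest to it by Euclidean distance, out of 11876 genes with a mean of at least 10, were Pgr, Col12a1, Fbn2, Serpinf1 and Thbs2. Their distances ran from 2.48 for Pgr, the progesterone receptor, to 3.31 for Thbs2, a secreted matrix protein. Col12a1 and Fbn2 encode a fibril-associated collagen and a fibrillin. None of the 5 was as low as Sfrp2 in C3Tag, where Pgr had a log2 ratio of -3.03 and Col12a1 of -2.51. The likeness rests on 4 values per gene.

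Sfrp1, known for silencing of its promoter in human breast cancer, had the highest level per kb of exon of the listed antagonists in both tissues of every table. It stood above 71.4% to 88.1% of genes in PT and above 79.0% to 88.2% in Lung met. Its means in PT and Lung met were 3052 and 2599 normalized counts in Her2, 1236 and 1486 in C3Tag, 576 and 832 in BALB, 668 and 634 in SEAGN, and 1287 and 1861 in the AKR-named table. The log2 ratio was above 0 in C3Tag (0.27), BALB (0.53) and the AKR-named table (0.53) and below 0 in Her2 (-0.23) and SEAGN (-0.08), always within 2-fold. Of 9 markers of mammary myoepithelium, the basal layer of the gland, those with a row differed between tables. Their median log2 ratios were 0.88 in Her2 (8 genes), 0.07 in C3Tag (7) and 0.15 in BALB (8). The medians were 0.91 in SEAGN (6) and -0.14 in the AKR-named table (5), both without Acta2, Cnn1 and Myh11. These medians run over genes of both directions, as in C3Tag, where Krt14 was at -1.51 and Mylk at 2.00, and the part of myoepithelial content in the Sfrp1 values was not tested.

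**Figure D2:**
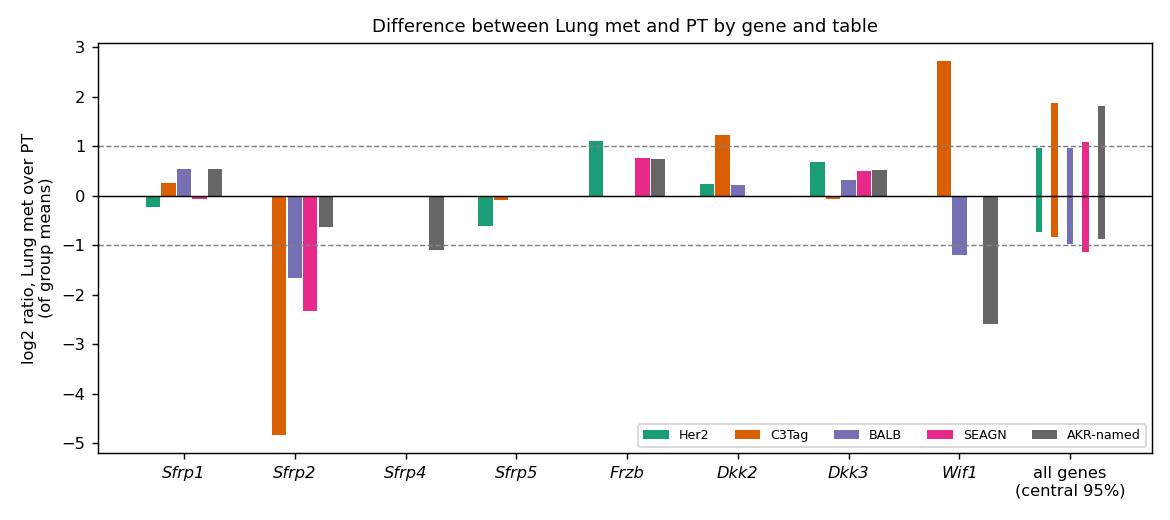
Bars give the log2 ratio of the group means, Lung met over PT, for each antagonist and table, with dashed lines at a 2-fold difference, and the bars at the right end span the central 95% of all genes in each table. Sfrp2 points down in all 4 tables that list it, reaching -4.83 in C3Tag, and Wif1 points up to 2.72 in C3Tag and down to -2.59 in the AKR-named table. A missing bar is a gene without a row, except for Dkk2 in the AKR-named table, whose log2 ratio of -0.01 is too short to see.

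The other Frizzled-related genes had low means where they were listed. Where a gene had no row, its level is unknown. Sfrp4, known from fibroblasts and bone, had means in the AKR-named table alone, at 21.9 normalized counts in PT and 10.2 in Lung met (log2 ratio -1.09). Sfrp5, known from adipose tissue and the gut, was near the floor of the tables, at 4.26 in PT and 2.77 in Lung met of Her2 (log2 ratio -0.62) and at 3.61 and 3.38 in C3Tag (log2 ratio -0.10). Frzb, also named Sfrp3 and known from cartilage, had means of 15.0 in PT and 32.6 in Lung met of Her2, a log2 ratio of 1.12. The means were 5.95 and 10.1 in SEAGN (0.76) and 12.8 and 21.3 in the AKR-named table (0.74). Frzb thus had its higher mean in Lung met in each of the 3 tables, above 98.0%, 95.4% and 89.4% of the log2 ratios of all genes, but at levels per kb that exceeded those of at most 13.4% of genes.

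Of the Dickkopf genes, Dkk3 had the higher mean in Lung met in 4 of 5 tables, always within 2-fold. The PT and Lung met means were 144 and 230 normalized counts in Her2 (log2 ratio 0.68), 69.3 and 86.3 in BALB (0.32), 82.6 and 116 in SEAGN (0.49), and 210 and 303 in the AKR-named table (0.53). In C3Tag the means of 371 and 354 differed by a log2 ratio of -0.07. The log2 ratio of Dkk3 exceeded that of 85.0% to 95.6% of genes in the first 4 of these tables and of 40.2% in C3Tag. Its nearest genes over the 5 tables by the Euclidean distance of their log2 ratios, out of 11795 compared, were Agps, Nxn, Cdo1, Elf3 and Tnfsf8, at distances of 0.21 to 0.38.

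Dkk2, which blocks the Wnt coreceptors Lrp5 and Lrp6, had a PT mean of 53.1 and a Lung met mean of 124 in C3Tag, a log2 ratio of 1.22 that exceeded that of 94.4% of genes. Elsewhere it lay close to equal in both tissues, with 48.5 and 57.4 in Her2 (log2 ratio 0.24), 9.47 and 11.0 in BALB (0.21), and 45.6 and 45.4 in the AKR-named table (-0.01). The log2 ratios of Lrp5 ran from -0.30 to 0.27 and those of Lrp6 from -0.64 to 0.08, all within 2-fold.

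Wif1 was the antagonist whose direction differed most between tables. In C3Tag its mean was 8.60 normalized counts in PT and 56.5 in Lung met, 6.57-fold higher in Lung met, and the log2 ratio of 2.72 exceeded that of 99.0% of genes. In the AKR-named table the mean was 489 in PT and 81.0 in Lung met, 6.03-fold lower in Lung met, with 0.0729% of genes below the log2 ratio of -2.59. In BALB it was 61.0 in PT and 26.5 in Lung met (log2 ratio -1.20, with 1.65% of genes lower). Per kb of exon, Wif1 stood above 3.60% of genes in PT and 21.4% in Lung met of C3Tag. These shares were 37.9% and 22.1% in BALB and 62.8% and 27.3% in the AKR-named table, each among the genes of its own table. Whether the difference between the tables exceeds the spread between animals was not tested, since no sample values entered.

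The sequences upstream of Sfrp2 and Wif1 are shown because these genes had the widest differences between the tissues and, in C3Tag, opposite directions. Sfrp2 lies on chromosome 3 of GRCm38 from 83766321 to 83774316 and Wif1 on chromosome 10 from 121033960 to 121100650, both on the plus strand in GENCODE M21. In the same annotation Sfrp1 lies on chromosome 8 from 23411502 to 23449632, Sfrp4 on chromosome 13 from 19623104 to 19632994, Sfrp5 on chromosome 19 from 42197971 to 42202252, Frzb on chromosome 2 from 80411970 to 80447625, Dkk2 on chromosome 3 from 132085292 to 132180304 and Dkk3 on chromosome 7 from 112116017 to 112159057. The bases directly before each GENCODE start are given 5′ to 3′ from RefSeq on GRCm38.p6, on the plus strand, at chr3:83766071-83766320 for Sfrp2 and chr10:121033754-121033959 for Wif1. Capitals mark matches on either strand to the TCF/LEF core (CTTTGAT or CTTTGAA), the GC box (GGGCGG) or the TATA box (TATAAA).
Sfrp2: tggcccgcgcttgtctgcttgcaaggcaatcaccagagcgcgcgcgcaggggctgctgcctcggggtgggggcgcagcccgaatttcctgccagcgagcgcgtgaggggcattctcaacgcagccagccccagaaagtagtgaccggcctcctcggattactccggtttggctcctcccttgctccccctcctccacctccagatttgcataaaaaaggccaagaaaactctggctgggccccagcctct
Wif1: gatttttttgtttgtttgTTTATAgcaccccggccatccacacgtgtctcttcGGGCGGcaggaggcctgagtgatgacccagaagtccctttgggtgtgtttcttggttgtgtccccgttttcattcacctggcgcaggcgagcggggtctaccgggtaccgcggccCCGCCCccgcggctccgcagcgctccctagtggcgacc
The RefSeq table held promoters of 5 of the 8 antagonists: Sfrp2, Sfrp5, Frzb, Dkk2 and Wif1. In the 250 bases before the RefSeq start, the TCF/LEF core was found in none of the 5, and 7.48% of all 32851 promoter windows of that length held it. The GC box was found in Sfrp5, Frzb, Dkk2 and Wif1 and in 32.7% of all windows, and the TATA box letters in Dkk2 and Wif1 and in 12.4% of all windows. Of these windows, 2 overlap the GENCODE gene. The Frzb window is chr2:80447397-80447646 on the minus strand, where the gene ends at 80447625. The Wif1 window runs to 121034003, past the gene start at 121033960. The Sfrp2 window had 63.6% G and C and 16 CpG dinucleotides, and that of Wif1 had 62.8% and 21, each above 74.6% of windows or more in CpG number. A match or its absence describes these letters only.

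**Figure D3:**
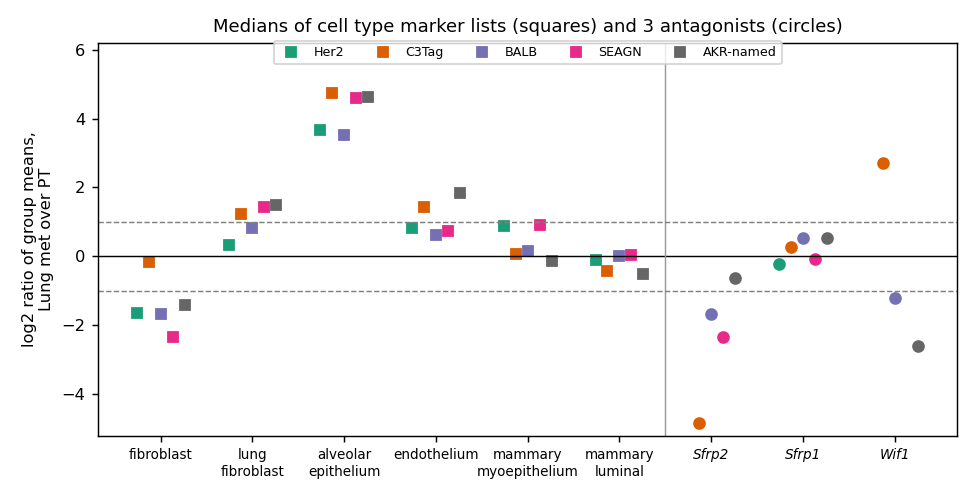
Squares give the median log2 ratio of Lung met over PT for 6 lists of cell type markers in each table, and circles give Sfrp2, Sfrp1 and Wif1. The alveolar epithelium list lies above 3 in all 5 tables, the fibroblast list lies below -1 in all but C3Tag, and Sfrp2 in C3Tag lies far below the fibroblast median of that table.

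Most markers of lung tissue were higher in Lung met, with exceptions in each list. Of 10 alveolar epithelium genes, 7 had a row in each table, and 6 or 7 of them were at least 2-fold higher, with medians of 3.68 in Her2, 4.75 in C3Tag, 3.54 in BALB, 4.61 in SEAGN and 4.62 in the AKR-named table. Their summed means were 2090 in PT and 25283 in Lung met of C3Tag, 4875 and 31037 in the AKR-named table, 7333 and 12220 in Her2, 1780 and 3239 in BALB, and 1761 and 4481 in SEAGN. Abca3, a lipid transporter of alveolar type 2 cells, made up most of each PT sum and was the lowest gene of the list in each table, with means of 5907 in PT and 5825 in Lung met of Her2 and a log2 ratio of -0.21 in the AKR-named table. Endothelial genes were 2-fold higher for 8 of 10 in C3Tag and 9 of 10 in the AKR-named table and for 3 of 10 in Her2, BALB and SEAGN. Of all genes, 7.42% were that much higher in C3Tag and 7.31% in the AKR-named table. The shares were 2.38% in Her2, 2.26% in BALB and 2.86% in SEAGN. The lung fibroblast list had medians of 1.24 in C3Tag, 0.81 in BALB, 1.45 in SEAGN, 1.48 in the AKR-named table and 0.32 in Her2. Its Mfap4 was 2-fold higher in all 5 tables, while Npnt was at -0.73 in the AKR-named table and Limch1 at -0.05 in BALB. In Her2, Npnt was abundant in both tissues, with means of 41503 in PT and 42076 in Lung met. Airway epithelium had 1 or 2 of 4 genes with a row. Cyp2f2 was 2-fold higher in all 5 tables, and Foxj1 ran from -0.42 in SEAGN to 0.94 in C3Tag. Mammary luminal medians ran from -0.52 to 0.05 and immune medians from 0.07 to 1.06, and adipocyte genes had at most 2 of 6 with a row. The part of lung tissue in the antagonist values was not tested.

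The other genes of the Wnt pathway are given by list, with counts summed over the 5 tables. Over the same tables, 4.51% of all gene values were at least 2-fold higher and 2.08% at least 2-fold lower, and nothing particular to a list is read from its counts. Among the Wnt ligands, 7 to 11 of 19 had a row per table, and of 41 values 4 were at least 2-fold higher and 3 at least 2-fold lower. The median was 0.43 in Her2, 0.29 in C3Tag, -0.21 in BALB, -0.56 in SEAGN and -0.17 in the AKR-named table, beside medians of all genes within 0.03 of 0. The highest ligand was Wnt5b in Her2 (1.11), Wnt6 in C3Tag (1.19) and Wnt16 in BALB (1.23). Wnt16 there had a mean over both tissues under 10, at 3.78 in PT and 8.89 in Lung met. In the AKR-named table the highest was Wnt2, a ligand of lung mesenchyme (1.21), and the lowest ligand was Wnt9a in SEAGN (-1.74). Among the receptors, the Frizzled, Lrp and Ror genes with Ryk and Ptk7, 70 of 75 values lay within 2-fold. Fzd4, a Frizzled receptor of endothelium, was the highest receptor in each of the 5 tables, from 0.17 in SEAGN to 2.01 in C3Tag. The lowest was Ror2 in SEAGN (-1.67), a receptor for Wnt5a.

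The remaining inhibitors, which act at the cell surface or outside the cell, had 40 values, with 4 at least 2-fold higher and 3 at least 2-fold lower. Sostdc1, a secreted antagonist of Wnt and BMP, was the highest of them in BALB (1.78) and SEAGN (2.49). Its PT means were low there, at 8.94 in BALB and 7.20 in SEAGN. In the AKR-named table its means were 69.8 in PT and 83.6 in Lung met, a log2 ratio of 0.26. The highest was Apcdd1 in C3Tag (1.67) and Notum, an enzyme that inactivates Wnt ligands, in the AKR-named table (1.70). Notum there had a mean over both tissues under 10, at 3.08 in PT and 10.0 in Lung met. Apcdd1 was the lowest in SEAGN (-1.72). Dkkl1, listed as a relative of the Dickkopf genes and less settled as a Wnt inhibitor, was the lowest in C3Tag (-1.40) and the AKR-named table (-1.59). Of the R-spondin axis, which protects Wnt receptors from removal, 1 of 17 values was 2-fold higher and 5 were 2-fold lower, where 4.51% and 2.08% of all gene values were. Lgr5, an R-spondin receptor that is also a Wnt target, had log2 ratios of -1.42 in C3Tag, -1.92 in SEAGN and -1.86 in the AKR-named table and no row in Her2 and BALB.

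Among 12 genes known as Wnt targets, some of them also in the lists of inhibitors and of the R-spondin axis, 10 of 49 values were at least 2-fold higher and 6 at least 2-fold lower, against the same 4.51% and 2.08%. Of the 10 higher values, 3 were from C3Tag and 4 from the AKR-named table, where 7.42% and 7.31% of all genes were 2-fold higher, and 4 of the 6 lower values were from SEAGN. Nkd1, a feedback inhibitor inside the cell, was the highest target in C3Tag (2.62), BALB (1.89), SEAGN (2.86) and the AKR-named table (3.51), and Axin2, the common feedback target, was the highest in Her2 (0.95). The list as a whole took no single direction, with medians of 0.06 in Her2, 0.20 in C3Tag, 0.28 in BALB, -0.53 in SEAGN and 0.44 in the AKR-named table. The list of transducers, which includes the beta-catenin destruction complex, lay within 2-fold in 64 of 65 values. The exception was Porcn at 1.40 in C3Tag, an enzyme that attaches a lipid to Wnt ligands and is not itself a transducer. The 4 widest log2 ratios among the antagonists were those of Sfrp2 in C3Tag and SEAGN and of Wif1 in C3Tag and the AKR-named table.

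**Figure D4:**
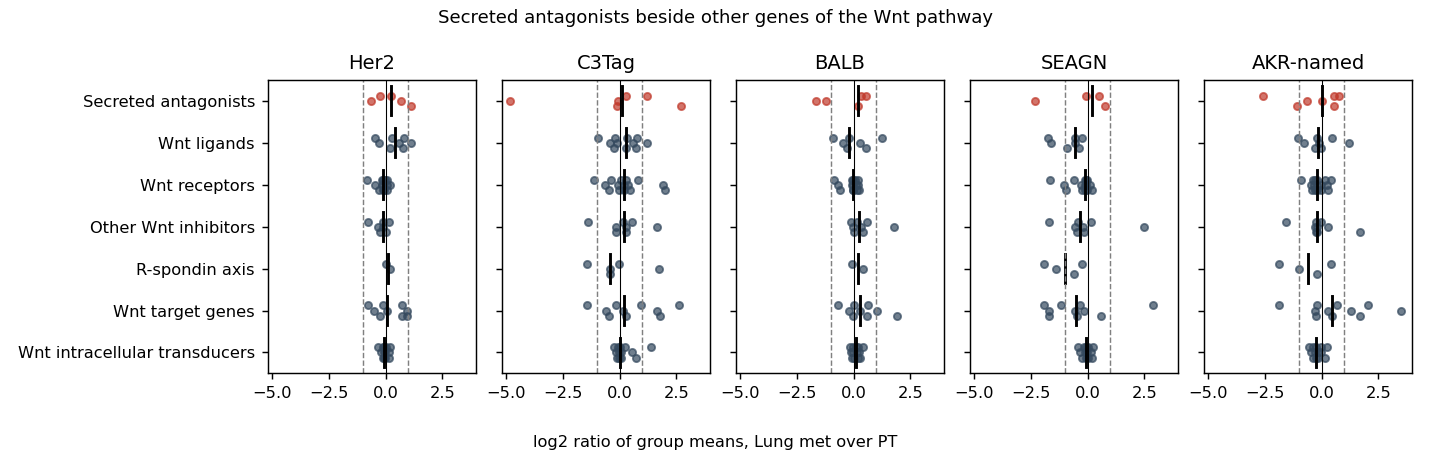
Each point is the log2 ratio of Lung met over PT of 1 gene, with the secreted antagonists in the top row, the other Wnt lists below, black bars at the medians and dashed lines at a 2-fold difference. The transducers lie within 2-fold in 64 of 65 values and the receptors in 70 of 75. Of all gene values, 4.51% were at least 2-fold higher and 2.08% at least 2-fold lower. The antagonists, chosen with their values known, reach -4.83 and 2.72 in C3Tag, and the target genes reach 3.51 in the AKR-named table.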

How the data were processed

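Bulk RNA-seq was performed on PT and Lung met tissue, and the tables used here hold 1 mean per gene and tissue. Alignment, gene counting and normalization were done by the authors in Partek Flow, which ran DESeq2 for the PyMT-F1 mice and Gene Specific Analysis for Her2, C3Tag and Myc. Their methods name mm9 and mm10, and the submitters' processing notes name STAR 2.7.8a, DESeq2 and mm39. The group means, deposited as least-squares means, were treated as a signal, and the kind of normalization and of mean is not given in the sources used here. The deposited p-values, FDR, ratios and fold changes are the authors' own comparisons and were not used. The Myc table holds only p-values and FDR and gave gene names alone.

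The log2 ratio is the log2 of the Lung met mean over the PT mean, with no pseudocount and no minimum level. Rows without a mean above 0 in both tissues were left out. This removed 0 rows in Her2, 1 in C3Tag, 93 in BALB, 53 in SEAGN and 116 in the AKR-named table. A gene was counted as higher or lower at a 2-fold difference of the means. No value of a single sample was available for analysis, so there is no SD, no test and no depth per sample. BALB and SEAGN genes carry BALB/cJ annotation identifiers and were matched by symbol. Exon lengths came from GENCODE M21 and covered 82.5% to 99.9% of genes per table, and promoters came from RefSeq on GRCm38.p6. Named genes were all antagonists, the genes of each fixed Wnt list 2-fold higher or 2-fold lower in all of at least 4 tables where their mean was at least 10 (no gene met this), the extremes of each list, and the 5 nearest genes by Euclidean distance for each antagonist listed in all 5 tables. The nearest genes of Sfrp1 are not reported here. Lrp5 and Lrp6, as targets of Dkk2, and the marker genes were named besides, after their values were seen. The nearest genes of Sfrp2, over 4 tables, and the comparison of Sfrp2 with the fibroblast list were chosen after their values were seen, as were the printed promoters and motifs. The antagonists and the lists were chosen with earlier results of these data known. The ratio step was checked by planting known fold changes in the PT means without noise, so their return was fixed by the arithmetic. Python 3.11.15, numpy 2.4.6, pandas 2.3.3 and matplotlib 3.10.9 were used.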

Additional observations from a re-analysis of the deposited data

How the results depend on the processing

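No result was tested, so the alternatives show only how the ratios and the counts of antagonists past a 2-fold difference move. The medians of all genes lay within 0.03 of 0 in each table, so centring on them could move the ratios little. It left all 27 log2 ratios on the same side of the 2-fold limit, and so did a pseudocount of 1. A pseudocount of 10 moved 3 of them within 2-fold, Frzb in Her2 to 0.77, Wif1 in BALB to -0.96 and Sfrp4 in the AKR-named table to -0.65. With it, 0 antagonists were 2-fold higher in Her2, and 1 was lower in BALB and 1 in the AKR-named table. A 1.5-fold limit gave 2 higher and 1 lower in Her2, 1 higher in SEAGN and 1 higher in the AKR-named table. No other count moved by more than 1.5 times. Leaving out genes with a mean under 10 could move no count, because all 3 such pairs lay within 2-fold. No paired analysis was possible because the tables hold no values of single samples, and no sample could be left out in turn for the same reason. Precision is limited by unknown depth and spread, most of all where means were low. Such means were those of Sfrp5, Frzb and Sfrp4, of Dkk2 in BALB and of Wif1 in PT of C3Tag. With a pseudocount of 10, the log2 ratio of Wif1 in C3Tag was 1.84.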
